A study of Mus musculus with 2 samples.

Results

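The core histone genes are the genes of the mm9 annotation whose symbol begins with Hist1h, Hist2h, Hist3h or Hist4h, and 70 of 37273 annotated genes on nuclear chromosomes carry such a symbol. The annotation lists 67 of them as protein-coding and 3, Hist3h2bb-ps, Hist1h2aj and Hist2h3c2, as pseudogenes. They comprise 6 genes of the linker histone H1, 20 of H2A, 19 of H2B, 12 of H3 and 13 of H4. The Hist1 family holds 56 genes, all on chromosome 13, Hist2 holds 10 on chromosome 3, Hist3 holds 3 on chromosome 11, and Hist4h4 lies alone on chromosome 6. The reads came from ChIP-seq of Msl1 and of Nsl1 in wild type mouse embryonic stem cells (mESCs) with the 129P2/OlaHsd background, labelled with the age E14 and taken at passage 26. The study's methods name these male cells E14.wt, so the label E14 matches the name of the cells and need not be an age. Msl1 and Nsl1 are subunits of the MSL and NSL complexes, which share the histone acetyltransferase Mof. There was 1 library for each antibody, with 19483142 distinct nuclear reads of 50 bases for Msl1 and 24883001 of 36 bases for Nsl1. No input library was used here. The libraries were also made with different kits, NEXTFlex for Msl1 and NEBNext for Nsl1, so every comparison of Msl1 with Nsl1 below is a comparison of 2 libraries, in which antibody, kit and read length cannot be told apart, and no p-value is given. All intervals are 95% intervals that cover counting error only, and those of sums over overlapping windows are too narrow where a read was counted more than once.

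Nucleosomes are built from H2A, H2B, H3 and H4, and H1 binds the linker DNA between them. The replication-dependent genes described here supply most of this protein in S phase. They are short, mostly without introns, lie in clusters that also share a nuclear body, and many H2A and H2B genes start back to back from a common promoter region. Their transcripts are the known metazoan mRNAs that end in a conserved stem-loop in place of a poly(A) tail, and the stem-loop binding protein Slbp brings the processing machinery to it. H4 is itself the substrate of Mof.

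The sequence features of this class were present in the members. Of the genes, 63 have 1 exon, and the median transcript length was 530.5 bases. The stem-loop, spelled GGNNC, then TTTT, then NAGNNCC on the coding strand, was searched in the 150 bases after the stop codon. It was found in 58 of 67 genes with a coding sequence. Over all 22367 protein-coding genes it was found in 61, or 0.273%, a count that includes these 58. It began at a median of 32 bases after the coding sequence, with a range of 22 to 59. Across the 58 genes it took 6 forms, shown here because they sort the histone types, with the letters CTTTT of the searched pattern in capitals.
carried by 36 genes of types H1, H2A, H2B and H3: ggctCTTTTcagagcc
carried by 9 genes, among them Hist1h1t: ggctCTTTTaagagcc
carried by Hist2h2ac: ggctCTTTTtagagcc
carried by 8 H4 genes, among them Hist4h4 and Hist1h4d: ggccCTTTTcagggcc
carried by Hist1h4i and Hist2h4: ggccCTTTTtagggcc
carried by Hist1h4b and Hist1h4j: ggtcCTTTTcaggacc
The last 3 forms, which differ from the others in the stem, were found in H4 genes only, and no H4 gene carried one of the first 3.

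The promoters of H4 also differed from the rest in their letters. In the 250 bases before and 50 bases after the TSS, the pentamer CCAAT, a binding site of NF-Y, stood on either strand in 55 of 57 genes of the other types and in 4 of 13 H4 genes, beside 37.4% of all protein-coding genes. GGTCCG on either strand, which lies within the H4 element bound by Hinfp, stood in 12 of 13 H4 genes and in 3 of the 57 others, beside 10.2% of all genes. TATAAA on the coding strand stood in 30 of 70 genes against 9.05% of all genes. The octamer ATTTGCAT on either strand, the site of Pou2f1 in H2B promoters, was found in 9 of 19 H2B and 7 of 20 H2A genes, in none of the 31 genes of the other types, and in 1.73% of all genes. Of these 16 histone genes, 12 start back to back with a partner of the other type, and the stretches of partners overlap. An octamer between their TSSs was thus counted for both, and a CCAAT there could be too. The upstream 250 bases of 4 genes among those with the highest Nsl1 or Msl1 ratios are printed from the mm9 genome, on the strand of the gene and up to the base before the annotated TSS. Capitals mark these motifs, which share letters only where capitals run together.
Hist4h4, minus strand of chr6:136752901-136753150: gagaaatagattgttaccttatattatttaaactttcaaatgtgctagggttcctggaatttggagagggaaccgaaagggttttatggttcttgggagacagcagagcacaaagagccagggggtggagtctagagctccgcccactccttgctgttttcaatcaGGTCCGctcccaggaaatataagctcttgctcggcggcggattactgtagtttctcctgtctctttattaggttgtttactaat
Hist1h4d, plus strand of chr13:23673217-23673466: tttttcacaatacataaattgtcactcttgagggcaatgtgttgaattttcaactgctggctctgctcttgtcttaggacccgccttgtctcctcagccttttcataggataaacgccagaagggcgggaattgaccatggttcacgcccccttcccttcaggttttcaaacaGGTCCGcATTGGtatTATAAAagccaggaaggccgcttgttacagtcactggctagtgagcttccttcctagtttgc
Hist1h1b, minus strand of chr13:21872495-21872744: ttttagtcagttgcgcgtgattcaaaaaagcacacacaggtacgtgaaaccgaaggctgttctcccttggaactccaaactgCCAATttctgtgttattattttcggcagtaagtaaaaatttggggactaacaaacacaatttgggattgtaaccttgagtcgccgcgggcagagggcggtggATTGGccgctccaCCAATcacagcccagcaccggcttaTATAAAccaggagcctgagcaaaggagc
Hist1h1a, plus strand of chr13:23855287-23855536: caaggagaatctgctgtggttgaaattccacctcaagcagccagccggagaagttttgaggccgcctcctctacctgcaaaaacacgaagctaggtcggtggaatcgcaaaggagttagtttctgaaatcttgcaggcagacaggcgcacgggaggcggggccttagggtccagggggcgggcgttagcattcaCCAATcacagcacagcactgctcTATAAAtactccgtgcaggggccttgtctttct
Both H4 genes carry GGTCCG in these stretches, and both H1 genes carry CCAAT followed by TATAAA.

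How much of these genes could be read at all was set by their likeness to each other, since the authors kept reads with a unique position. A read start was called unique where the 50 bases (Msl1) or 36 bases (Nsl1) that begin there occur once in the mm9 genome on either strand. The coding sequences are the least readable stretches. In H3 genes a median of 18.2% of the starts within the coding sequence was unique for Msl1 reads and 13.8% for Nsl1 reads, in H2A 18% and 13.4%, in H2B 22.7% and 17.8%, and in H4 29.7% and 26.4%. H1 genes, which differ more from each other, reached 89.1% and 85.7%. The most repeated 50 bases in H2A and H4 coding sequences are shown, since no Msl1 read from them could be placed.
Hist1h2ai, plus strand of chr13:21808471-21808520, 19 copies in the genome: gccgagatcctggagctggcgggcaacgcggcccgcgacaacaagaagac
Hist1h4j, plus strand of chr13:21827133-21827182, 11 copies in the genome: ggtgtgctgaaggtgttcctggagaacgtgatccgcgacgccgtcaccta
In Hist4h4, all 263 Msl1 and all 277 Nsl1 starts within the coding sequence were unique, in contrast to those of the H4 genes on chromosome 13.

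Within 500 bases of the TSS the median unique share over the 70 genes was 71.2% for Msl1 and 65.7% for Nsl1, and 14 and 19 genes were under 50%. Of all protein-coding genes, 5.54% and 6.70% were under 50%. Around the members no read of either library started at a repeated sequence, at 44786 positions for Msl1 and 49612 for Nsl1, while unique starts with no near copy carried 8.77 and 8.03 reads per 1000 possible reads and unique starts with a copy at up to 2 mismatches 7.74 and 11.4. A count of 0 allows up to 0.0335 and 0.0302 reads per 1000 there. The 6 genes with no read in either TSS window were Hist2h3c1, Hist1h2bq, Hist1h2ao, Hist1h4m, Hist1h2ap and Hist1h2br, whose windows were 0% to 7.09% unique. The last 5 lie, with Hist1h4n, in an inverted copy on chromosome 13: chr13:21898282-21904016 and the other strand of chr13:21923636-21929398 differ at 1 of 5735 bases compared. Their 0 counts say nothing about binding. The plot of reads against unique share shows these windows at its left edge.

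**Figure D1:**
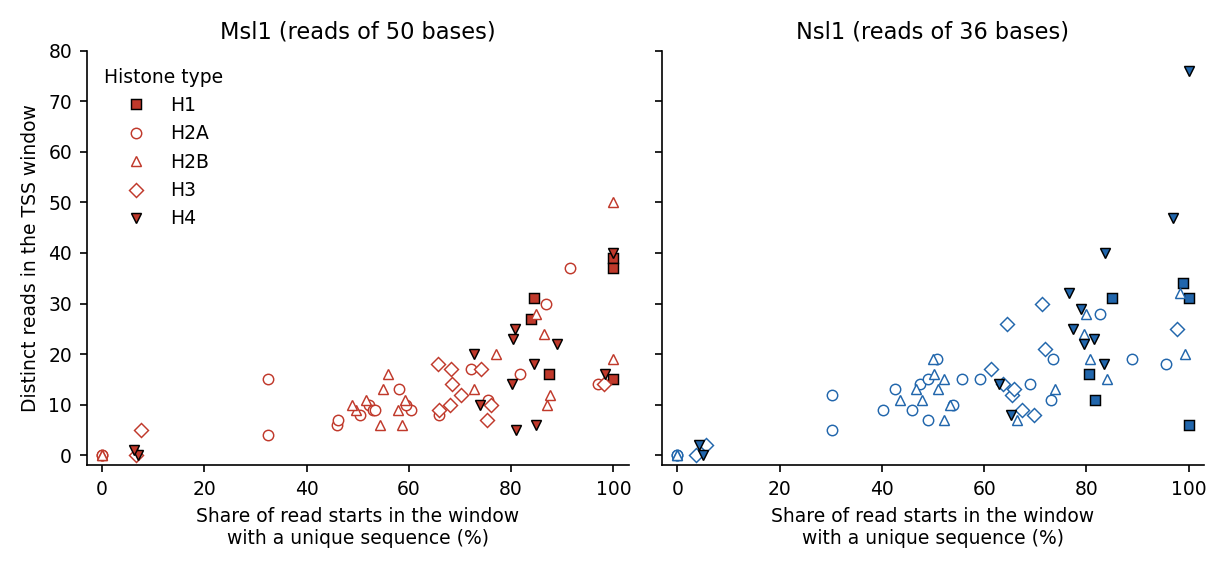
Distinct reads within 500 bases of the TSS (y axis) against the share of read starts in that window with a sequence that occurs once in mm9 (x axis, percent) for the 70 core histone genes in each library, with a symbol for each histone type and filled symbols for H1 and H4. Windows under 10% unique held 0 to 5 reads, and the highest count, 76 Nsl1 reads at Hist4h4, stood in a window that was 100% unique.

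Few core histone genes reached 3 times the reads of the surrounding chromatin at the TSS. Reads within 500 bases of the TSS were set against the local level, that is the reads per kb between 5 and 50 kb away on both sides. Over the 70 genes the Msl1 reads stood at a median of 1.17 times this level and the Nsl1 reads at 1.31 times, beside 1.82 and 1.67 times over all protein-coding genes. A gene was called where the window held at least 10 reads and at least 3 times the local level. For Msl1 5 of 70 genes were called, beside 22.9% of all protein-coding genes, and for Nsl1 4 of 70, beside 22.8%. Of the 19 H1 and H4 genes 4 were called in each library, or 21.1%, which is near the share of all genes. Their windows were 84.5% unique in the median for Msl1 and 81.4% for Nsl1, against 60.4% and 55.6% for the 51 genes of the other types. With windows of 250 bases on each side the Msl1 calls fell to 2 and the Msl1 median to 0.779. The interval of the ratio, on all bases, lay wholly above 1 for 16 of 70 genes with Msl1, beside 51.8% of all protein-coding genes, and for 20 with Nsl1, beside 49.2%. The unique share of the windows moves with these lower values. Per unique kb, over the 51 genes with at least 50% unique windows in both libraries, the median ratio was 1.70 for Msl1 and 1.61 for Nsl1. Among the 20868 protein-coding genes with such windows it was 1.91 and 1.74 on all bases, a measure on which the same members stood at 1.32 and 1.44. The 5 and 4 called genes are all among these 51, beside 24.4% and 24.3% of the 20868. They also lie among the 19 members at least 80% unique in both libraries, of which they are 26.3% and 21.1%. Counted per unique kb, 5 and 6 of the 51 stood at 3 or more with at least 10 reads. Ranked among the 20868 genes by reads per unique kb, the members stood at a median percentile of 48.3 for Msl1 and 59.5 for Nsl1, near the middle in both. The windows held 0 to 50 Msl1 reads and 0 to 76 Nsl1 reads, so that a single gene is measured with a wide interval.

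**Figure D2:**
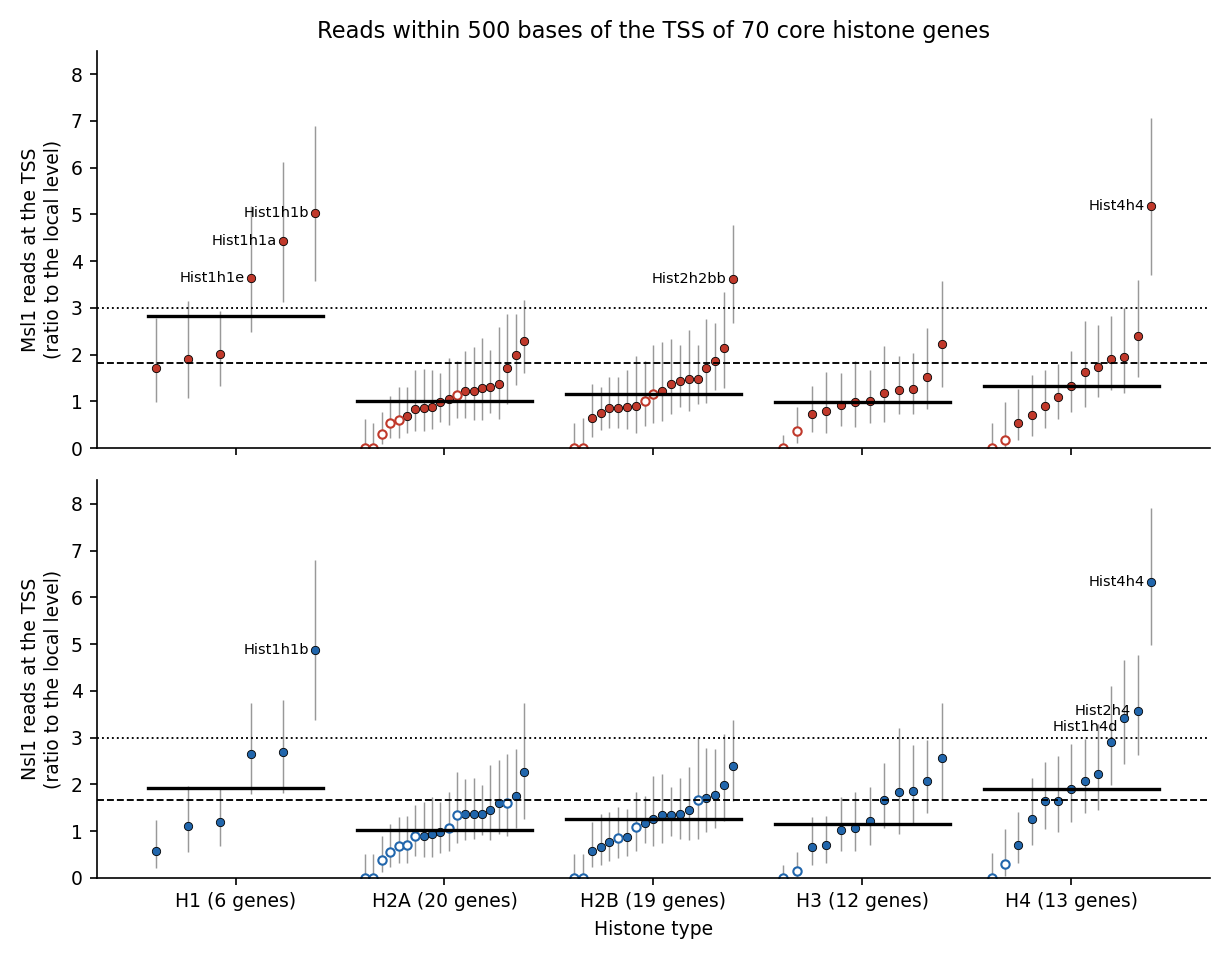
Ratio of reads within 500 bases of the TSS to the local level (y axis) for the 70 core histone genes by histone type (x axis), Msl1 above and Nsl1 below, with exact Poisson 95% intervals. Open circles are windows under 50% unique, the short lines are the medians of each type, the dashed line is the median of all protein-coding genes (1.82 and 1.67), the dotted line is 3, and genes at 3 or more are named.

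Hist4h4, the single-copy H4 gene of chromosome 6, had the highest ratio in both libraries. Its window was 100% unique and held 40 Msl1 reads, 5.19 times the local level (interval 3.71 to 7.07), and 76 Nsl1 reads, 6.33 times (4.99 to 7.92). Its annotated TSS is the first coding base. Most of the reads lay downstream of it, with 28 Msl1 and 44 Nsl1 reads over the transcript of 312 bases, against 7 and 26 in the 500 bases upstream.

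The H1 genes stood highest for Msl1, and their median ratio was 2.83 for Msl1 and 1.92 for Nsl1. Hist1h1b held 39 Msl1 reads, 5.04 times the local level (3.58 to 6.89), and 34 Nsl1 reads, 4.87 times (3.37 to 6.80). Its neighbourhood has a low unique share, and per unique kb the ratios were 3.16 and 2.92. Hist1h1a followed with 37 Msl1 reads at a ratio of 4.44 (3.12 to 6.11) and 31 Nsl1 reads at 2.69 (1.82 to 3.81). Hist1h1e had 31 Msl1 reads at 3.64 (2.48 to 5.17), but 11 Nsl1 reads at 1.10 (0.549 to 1.97). The remaining H1 genes did not reach 3 in either library. Hist1h1c had 16 Msl1 reads at 1.72 and 31 Nsl1 reads at 2.64, and Hist1h1d 27 at 2.01 and 16 at 1.20. Hist1h1t encodes the testis H1 and had 15 Msl1 reads at 1.91 (1.07 to 3.15) and 6 Nsl1 reads at 0.568 (0.208 to 1.24), the fewest Nsl1 reads of the H1 genes in a window that was 100% unique.

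The H4 genes had a median ratio of 1.89 for Nsl1, next to the 1.92 of the H1 genes, and 1.32 for Msl1. Per unique kb the Nsl1 median was 2.37 over the 11 H4 genes with at least 50% unique windows and 1.91 over the 6 H1 genes. For Nsl1 3 of 13 were called, or 23.1%, close to the 22.8% of all genes. Next to Hist4h4 these were Hist2h4, with 47 Nsl1 reads at 3.58 (2.63 to 4.76) and 16 Msl1 reads at 1.10 (0.631 to 1.79), and Hist1h4d, with 40 Nsl1 reads at 3.42 (2.45 to 4.66) and 22 Msl1 reads at 1.74 (1.09 to 2.63). The TSS of Hist1h4d lies 136 bases from that of another annotated gene, Gm17658, so that their windows overlap. Hist1h4i was just under the threshold for Nsl1, with 32 reads at 2.91 (1.99 to 4.11), and had 23 Msl1 reads at 2.40 (1.52 to 3.6). At the other end, Hist1h4b had 5 Msl1 reads at 0.542 (0.176 to 1.27) but 22 Nsl1 reads at 1.89 (1.19 to 2.86), and Hist1h4c had 6 at 0.719 and 18 at 1.65. Both windows were at least 79.6% unique in both libraries.

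Of the 51 H2A, H2B and H3 genes, whose windows are the least unique, 1 was called for Msl1 and none for Nsl1, beside 22.9% and 22.8% of all genes. They stood at a median ratio of 1.01 with Msl1 and 1.17 with Nsl1 reads on all bases. Per unique kb, over the 34 with at least 50% unique windows, the medians were 1.57 and 1.58. On that measure 1 of the 34 stood at 3 or more with at least 10 reads for Msl1 and 2 for Nsl1. The highest values were 3.23 and 3.34. Of all protein-coding genes with such windows 24.4% and 24.3% were called, on all bases. The gene called on all bases was Hist2h2bb, with 50 Msl1 reads at 3.62 (2.68 to 4.77) and 32 Nsl1 reads at 2.39 (1.64 to 3.38) in windows of 100% and 98.4% unique starts. It is annotated with a transcript of 9281 bases, over which 171 Msl1 and 114 Nsl1 reads lay. Hist1h3h had the highest Nsl1 ratio among the H3 genes, 2.56 with 26 reads, against 0.978 with 9 Msl1 reads. Among windows at least 50% unique the lowest Msl1 ratios, beside those of Hist1h4b and Hist1h4c, were 0.635 at Hist1h2bm, with 6 reads, and 0.694 at Hist1h2ae, with 9. For Nsl1 the lowest, beside Hist1h1t, were 0.575 at Hist1h2bb with 7 reads, 0.658 at Hist1h3c with 8 reads, and 0.658 at Hist1h2bn with 7 reads. On all bases the testis-type pair Hist1h2aa and Hist1h2ba had Msl1 ratios of 1.71 and 1.23 and Nsl1 ratios of 1.6 and 1.34. The stretch spanning both windows was 89.4% unique for Msl1 and 85.4% for Nsl1, the most of all divergent pairs. Per unique kb this pair had the lowest Msl1 value of the pairs with reads, as given below.

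Members outside chromosome 13 had a median ratio of 1.19 for Msl1 and 1.35 for Nsl1, close to the 1.17 and 1.27 of the 56 on chromosome 13. Per unique kb their reads were higher, at 1.57 reads per unique kb and per 1000000 distinct reads of the library (1.40 to 1.76), below called RPKM over unique bases, or on all bases where the whole length was used, for Msl1 and 1.43 (1.28 to 1.59) for Nsl1, against 1.01 (0.934 to 1.09) and 1.00 (0.933 to 1.07) on chromosome 13. These sums count a read under each gene whose window holds it, so that their intervals are narrower than counting error alone would make them. The Hist3 genes on chromosome 11 had similar counts: Hist3h2ba held 24 Msl1 and 28 Nsl1 reads, Hist3h2a 30 and 28, and the pseudogene Hist3h2bb-ps 28 and 24, with Msl1 ratios from 1.48 to 2.0 and Nsl1 ratios from 1.17 to 1.37. Hist3h2a and Hist3h2bb-ps start 173 bases apart and share most of their reads, since the stretch spanning both windows held 32 Msl1 and 30 Nsl1 reads. Of the Hist2 genes, Hist2h2ab held 37 Msl1 reads at 2.29 (1.62 to 3.16) and 19 Nsl1 reads at 1.36. The neighbours Hist2h2ac and Hist2h2be had Msl1 ratios of 0.989 and 0.746 and Nsl1 ratios of 1.36 and 1.37, and Hist2h3b had 1.25 and 1.03. Hist2h2aa1 and Hist2h2aa2, which share most of their sequence and were 32.4% and 30.3% unique, held 15 and 4 Msl1 reads and 12 and 5 Nsl1 reads. Hist2h3c2, at 7.64% and 5.54% unique, held 5 and 2 reads, and Hist2h3c1 none.

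Set against each other, the 2 libraries ordered the histone types differently: H1 genes leaned to Msl1 and H4 genes to Nsl1. The log2 of Msl1 over Nsl1 reads, each scaled to the distinct reads of its library and summed over the TSS windows of a type, was 0.71 (0.37 to 1.05) for H1, with 165 and 129 reads, and −0.40 (−0.66 to −0.14) for H4, with 200 and 336 reads. It was 0.24 (−0.02 to 0.50) for H2A, 0.32 (0.07 to 0.57) for H2B and −0.06 (−0.39 to 0.27) for H3. Of the single genes, 5 of 6 H1 genes were above 0, and 9 of the 12 H4 genes with reads in both libraries were below 0. The value depends on how far from the TSS reads are counted. With 250 bases on each side it was 0.15 (−0.36 to 0.65) for H1 and −1.06 (−1.45 to −0.69) for H4, and all 12 H4 genes were below 0. With 1000 bases on each side it was 0.46 (0.22 to 0.69) for H1 and 0.05 (−0.14 to 0.24) for H4. H4 had the lowest and H1 stood above H4 at each of the 3 widths, while the type with the highest value was H1 at 250 and 500 bases and H2A, at 0.68, at 1000 bases. The median over all protein-coding genes with reads in both libraries rose with the width, as H4 did and H1 did not, from −0.18 at 250 to 0.05 at 500 and 0.18 at 1000 bases.

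**Figure D3:**
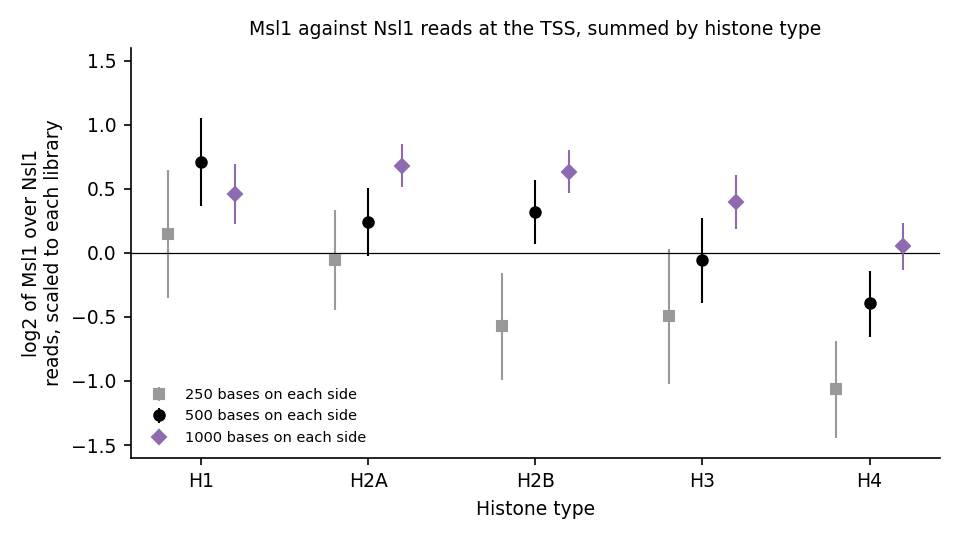
Log2 of Msl1 over Nsl1 reads, each scaled to its library (y axis), summed over the TSS windows of each histone type (x axis), with windows of 250, 500 and 1000 bases on each side of the TSS and exact binomial 95% intervals. H4 lies lowest at each width, from −1.06 to 0.05, and each type except H1 rises with the width.

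Among single genes, 12 had at least 50 reads in the 2 libraries together. Hist2h2ab was the 1 of these that stood at least 2-fold above the median of all genes in Msl1 over Nsl1, beside 14.8% of the 9043 protein-coding genes with as many reads, with a log2 of 1.31 (0.48 to 2.20). Its TSS lies 252 bases from that of another annotated gene, Gm15444. Hist2h2bb came next at 1.00 (0.33 to 1.68), then Hist1h1a at 0.61 (−0.12 to 1.35) and Hist3h2bb-ps at 0.58 (−0.26 to 1.43). Hist2h4 was the 1 that stood at least 2-fold below, beside 15.9% of those genes, at −1.20 (−2.12 to −0.36). Hist4h4 was at −0.57 (−1.16 to −0.0023), Hist1h4d at −0.51 (−1.33 to 0.28) and Hist1h4i at −0.12 (−0.96 to 0.69). With only 12 genes, 1 in each direction cannot be told apart from these background shares. Most of the 12 intervals include the all-gene median of 0.03.

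Along the genes, Nsl1 reads began at the TSS and Msl1 reads further in, and both lay downstream rather than around the start. For the 44 members outside a divergent pair, Nsl1 stood at 0.658 RPKM over unique bases (0.447 to 0.933) in the bin from 100 to 50 bases upstream and rose to 1.68 (1.33 to 2.10) in the last 50 bases before the TSS. It was highest 50 to 100 bases downstream, at 2.49 (2.0 to 3.07). Over all protein-coding genes Nsl1 already stood at 1.57 RPKM, on all bases, at 100 to 50 bases upstream and was highest in the 50 bases before the TSS, at 1.81. Msl1 at the members was 0.314 (0.157 to 0.561) in the last 50 bases before the TSS and reached its highest bin 300 to 350 bases downstream, at 2.65 (2.0 to 3.45). The highest bins are part of broad stretches with overlapping intervals, since Nsl1 also stood at 2.34 to 2.43 from 150 to 300 bases and Msl1 at 2.61 from 200 to 250 bases. Over all 70 members, pairs included, the highest bin was at 250 to 300 bases for Nsl1, at 2.13 (1.58 to 2.81), and at 200 to 250 bases for Msl1, at 2.38 (1.84 to 3.04), so that the order of the maxima does not hold there. The Msl1 maximum over all genes lay at 200 to 250 bases, at 1.67. For 60 of the 67 members with an annotated coding sequence the TSS lies under 100 bases before its first base, and for 10 of these it is that base. The values over all genes are not corrected for unique share, and the bins of the members inside the coding sequence were down to 41.9% unique for Msl1, at 250 to 300 bases, and 31.8% for Nsl1, at 200 to 250 bases.

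**Figure D4:**
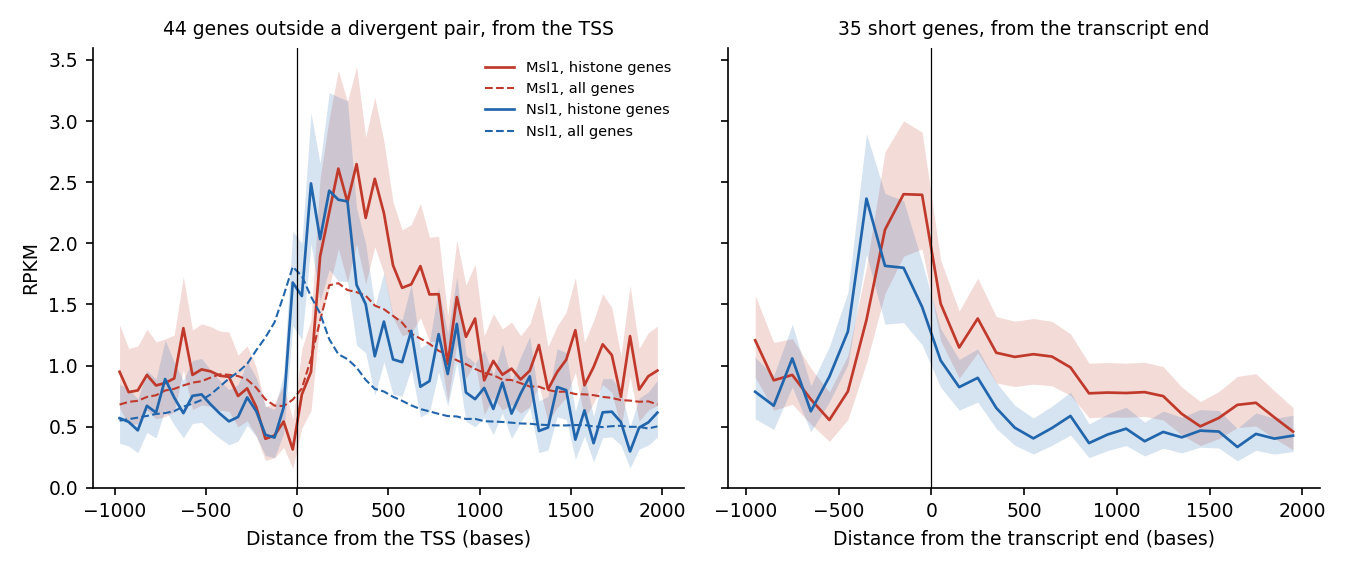
Left, RPKM (y axis) in bins of 50 bases by distance from the TSS (x axis, bases) for the 44 core histone genes outside a divergent pair (solid, over unique bases) and all protein-coding genes (dashed, all bases), with Msl1 in red and Nsl1 in blue. Right, the same in bins of 100 bases by distance from the transcript end for 35 members under 1000 bases long, with shading for Poisson 95% intervals. The highest Nsl1 bin is 2.49 at 50 to 100 bases after the TSS and the highest Msl1 bin 2.65 at 300 to 350 bases, each within a broad stretch of overlapping intervals, and Msl1 stays above Nsl1 past the transcript end.

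Msl1 reads ran on past the annotated transcript end further than Nsl1 reads did. That end often differs from the end of the stem-loop. Of the 58 members with a stem-loop, 13 are annotated to end within 20 bases of its last base. For 16 the annotated end lies before that base, and for 16 over 100 bases past it. The reads past the end were measured on 35 members that are under 1000 bases long. These have no other annotated gene of any type in the 2000 bases past their end. Over their transcripts Msl1 stood at 1.84 RPKM over unique bases (1.65 to 2.04) and Nsl1 at 1.71 (1.54 to 1.90). In the first 500 bases past the end the values were 1.24 (1.12 to 1.38) and 0.780 (0.694 to 0.874), from 500 to 1000 bases 0.935 (0.832 to 1.05) and 0.459 (0.395 to 0.530), and from 1000 to 2000 bases 0.640 (0.580 to 0.705) and 0.426 (0.382 to 0.473). The 500 bases upstream of the TSS had 0.739 (0.640 to 0.850) and 0.799 (0.706 to 0.901). The first 500 bases past the end thus held 1.68 times the upstream level for Msl1 (1.41 to 2.01) and 0.976 times for Nsl1 (0.825 to 1.16). Set against the TSS window the same stretch held 1.09 (0.954 to 1.25) for Msl1 and 0.685 (0.595 to 0.788) for Nsl1. Over all protein-coding genes it held 0.513 and 0.438 on all bases, while the values of the members are per unique base. On all bases the 35 members had 1.11 RPKM in the first 500 bases past the end and 0.760 in the TSS window for Msl1. For Nsl1 they had 0.689 and 0.712. That stretch begins close to the TSS in a histone gene, of 530.5 bases in the median, and far from it in most genes. At equal distance, 500 to 2000 bases downstream of the TSS, the short members had 0.851 (0.763 to 0.950) of their TSS level for Msl1 and 0.495 (0.443 to 0.552) for Nsl1, and all protein-coding genes 0.814 and 0.479 on all bases. Over all members of a type, with no condition on length or on the bases past the end, the first 500 bases past the end held 1.53 times the TSS level of Msl1 in the 12 H3 genes (1.20 to 1.96), against 0.741 for Nsl1 (0.570 to 0.959). In the 6 H1 genes the order of the libraries was the other way. Msl1 stood there at 0.708 (0.521 to 0.952) and Nsl1 at 0.868 (0.629 to 1.19), and these intervals overlap.

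Single genes differed in this order. Hist1h4d had 24 Msl1 and 12 Nsl1 reads in the 500 bases past its end, and Hist1h4i 23 and 15. Hist4h4 had 8 and 14 past its end, and Hist1h1b 13 and 27, more Nsl1 than Msl1 reads. These are read counts that are not scaled to the libraries.

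The divergent pairs, in which an H2A and an H2B gene start within 500 bases of each other and run apart, numbered 13 and held 26 of the 70 genes. Each had 1 H2A and 1 H2B gene, and their TSSs lay 173 to 306 bases apart. Hist1h2aj and Hist1h2bm, which are annotated as starting inside each other, were not counted. All 26 genes had CCAAT within their promoter stretch, and 12 had the octamer. The stretches of partners overlap, so that a motif between the TSSs could be counted for both. The stretches between the TSSs of the pairs outside chromosome 13 are printed from the H2A to the H2B gene, with the same motifs in capitals. TATAAA is marked only where it stands on the printed strand. Hist2h2ac has a TATAAA on its own strand, the other one, which reads tttata here and is left in lower case.
Hist3h2a to Hist3h2bb-ps, minus strand of chr11:58768015-58768186: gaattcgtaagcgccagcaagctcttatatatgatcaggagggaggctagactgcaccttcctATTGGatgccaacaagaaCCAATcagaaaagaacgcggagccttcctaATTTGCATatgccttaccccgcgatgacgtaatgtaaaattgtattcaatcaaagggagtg
Hist2h2ac to Hist2h2be, plus strand of chr3:96024804-96025043: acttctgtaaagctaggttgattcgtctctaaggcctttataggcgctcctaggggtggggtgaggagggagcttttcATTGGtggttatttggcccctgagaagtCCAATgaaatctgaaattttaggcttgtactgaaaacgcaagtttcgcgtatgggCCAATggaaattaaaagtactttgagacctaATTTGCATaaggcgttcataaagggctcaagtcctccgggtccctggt
In both, the octamer stands nearer to the H2B gene than the CCAAT boxes do. This order was not shared by all pairs. Between Hist1h2aa and Hist1h2ba and between Hist1h2ac and Hist1h2bc, a CCAAT lies on the H2B side of the octamer.

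Between the TSSs of the pairs Msl1 reads were sparser than Nsl1 reads. The 11 pairs with reads held 8 Msl1 and 41 Nsl1 reads between their TSSs, which is 0.174 (0.0751 to 0.343) and 0.673 (0.483 to 0.913) RPKM over unique bases. Over the transcripts of the 11 paired genes that are under 1000 bases long and free of other annotated genes past the end, the values were 1.24 (0.955 to 1.57) for Msl1 and 1.06 (0.816 to 1.36) for Nsl1. Over all 26, some with long annotated transcripts, they were 1.00 (0.908 to 1.10) and 0.651 (0.582 to 0.726). The stretch between the TSSs was 85.8% to 100% unique for Msl1 and 93.4% to 100% for Nsl1. From 500 bases outside one TSS to 500 bases outside the other, the median over the 11 pairs was 1.07 for Msl1 and 1.065 for Nsl1. On the H2A side the level from 300 to 200 bases before the middle was 2.09 (1.36 to 3.09) for Msl1 and 2.26 (1.46 to 3.33) for Nsl1, and on the H2B side 200 to 300 bases after it 1.18 (0.628 to 2.02) and 1.29 (0.689 to 2.21). The intervals of the 2 sides overlap in both libraries.

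**Figure D5:**
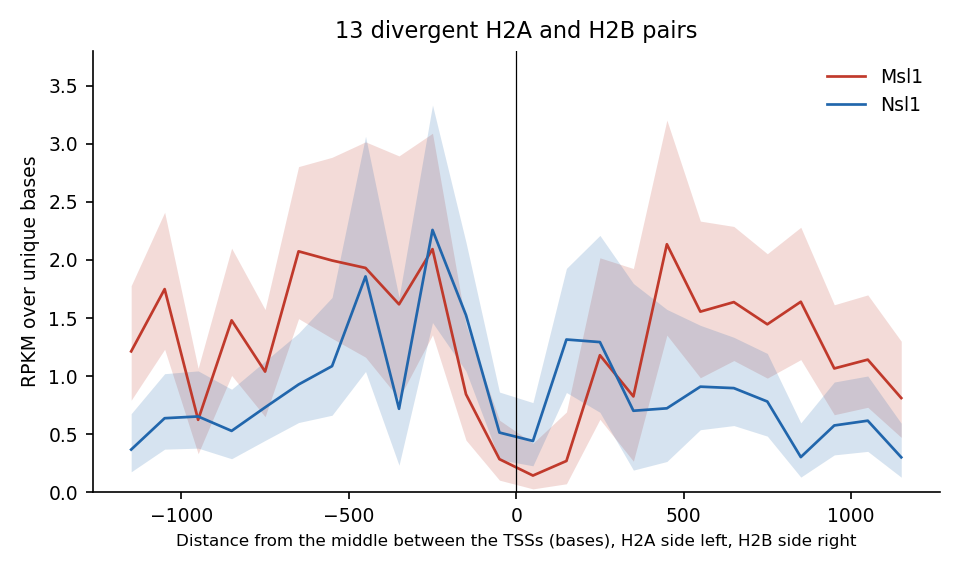
RPKM over unique bases (y axis) in bins of 100 bases by distance from the middle between the TSSs of the 13 divergent pairs (x axis, bases), with the H2A gene to the left and the H2B gene to the right and shading for Poisson 95% intervals. Msl1 is lowest just beside the middle, at 0.145 in the first 100 bases on the H2B side, where Nsl1 is at 0.442 and below the neighbouring bins but not below its lowest bins further out, such as 0.302 at 1100 to 1200 bases.

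The pair of Hist3h2bb-ps and Hist3h2a held the most reads, 32 for Msl1 and 30 for Nsl1, in stretches of 85.4% and 79.6% unique starts. Hist2h2ac and Hist2h2be followed with 22 and 23, Hist1h2bl and Hist1h2ai with 22 and 20, Hist1h2ag and Hist1h2bj with 16 and 21, Hist1h2ba and Hist1h2aa with 15 and 21, and Hist1h2an and Hist1h2bp with 14 and 16. Per unique kb the order changed. Hist1h2bl and Hist1h2ai, 53.9% and 50.4% unique, had 1.65 (1.03 to 2.50) for Msl1 and 1.26 (0.767 to 1.94) for Nsl1, near the 1.64 and 1.29 of the Hist3 pair. The testis-type pair Hist1h2ba and Hist1h2aa had 0.659 (0.369 to 1.09) and 0.756 (0.468 to 1.16), the lowest Msl1 value, but its intervals overlap with those of most pairs. The pairs with the fewest reads, Hist1h2bq with Hist1h2ao and Hist1h2ap with Hist1h2br, held none and are the 2 sides of the inverted copy.

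The cluster on chromosome 13 lies in 3 groups with 19, 5 and 31 genes, which with 5 kb on both sides are chr13:21802632-21934398, chr13:22121982-22140545 and chr13:23617919-24031720, and Hist1h2al lies alone on the same chromosome, far outside. Over these 3 stretches the libraries had 0.439, 0.865 and 0.477 RPKM on all bases for Msl1 and 0.332, 0.595 and 0.460 for Nsl1, beside a mean of 0.535 if all reads were spread over the mappable genome. The stretch with 5 genes was above this mean in both libraries and the other 2 below it, but the stretches were counted on all bases, repeats included, and the mean on mappable bases. Within 1500 bases of a histone transcript the values were 0.572, 1.09 and 0.690 for Msl1 and 0.379, 0.684 and 0.537 for Nsl1, and further away 0.358, 0.603 and 0.381 for Msl1 and 0.304, 0.491 and 0.425 for Nsl1, all on all bases. Thus the reads were denser at the genes in each of the 3 groups for both libraries. The group around Hist1h4i had the highest density although its TSS windows were 52.3% and 50% unique in the median.

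Other genes lie between the histone genes. The span held 48 other protein-coding TSSs, 33 of them vomeronasal receptor genes, a family known from the sensory neurons of the vomeronasal organ. The receptor genes had a median ratio of 1.07 for Msl1 and 1.02 for Nsl1, and the 15 others 1.42 and 1.38, beside 1.16 and 1.27 over the 55 histone genes, all on all bases. Per unique kb the 41 of these histone genes with at least 50% unique windows stood at 1.68 and 1.76, and on all bases the same 41 stood at 1.31 and 1.6. The 15 others were neither restricted nor scaled in this way. The span held genes with more reads than most of the histone genes: Abt1 had 37 Msl1 reads at 2.72 and 85 Nsl1 reads at 4.91, and Zfp322a 34 at 3.17 and 56 at 4.41. These lie between the histone groups. Inside the groups the 7 other genes had medians of 0.976 and 1.17.

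Genes that supply histone mRNA were read alongside. Of 16 genes listed for their part in histone gene transcription or in the processing and turnover of histone mRNA, 15 were found in the annotation, and 9 of 15 were called for Msl1 and 9 for Nsl1, beside 22.9% and 22.8% of all protein-coding genes, with median ratios of 3.29 and 3.54. In both libraries 6 were called. Casp8ap2 (FLASH), which takes part in the cleavage of histone pre-mRNA, had 32 Msl1 reads at 3.02 (2.06 to 4.26) and 43 Nsl1 reads at 3.55 (2.57 to 4.78). Cpsf3 and Cpsf2, the endonuclease and its partner, had 37 and 40 Msl1 reads at 3.47 each and 96 and 91 Nsl1 reads at 7.01 (5.68 to 8.56) and 7.85 (6.32 to 9.63). Ncbp1, a subunit of the cap-binding complex, had 53 at 4.86 (3.64 to 6.36) and 75 at 6.07 (4.77 to 7.61). Eri1, an exonuclease that degrades histone mRNA, had 33 at 5.76 (3.97 to 8.09) and 48 at 5.02 (3.70 to 6.66), and Cstf2, a cleavage factor, 21 at 4.46 (2.76 to 6.82) and 17 at 3.29 (1.92 to 5.26). Npat, which drives histone gene transcription, was past 3 for Nsl1, with 61 reads at 5.76 (4.40 to 7.39), and had 27 Msl1 reads at 2.22. Slbp had 53 Nsl1 reads at 3.54 and 28 Msl1 reads at 1.78, and Hinfp 66 at 4.18 and 41 at 2.98. Called for Msl1 and not for Nsl1 were Cramp1l, with 69 Msl1 reads at 6.69 (5.21 to 8.47) and 30 Nsl1 reads at 2.44, Zfp473 with 34 at 3.96 and 31 at 2.51, and Lsm11, a subunit of the U7 particle that processes histone pre-mRNA, with 41 at 3.29 and 35 at 1.91.

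By median ratio on all bases, the histone genes listed as replication-independent stood between the core histone genes and this list. When in the cell cycle they are transcribed was not tested. Of the 13 genes so listed 12 were found, 4 were called for Msl1 and 1 for Nsl1, beside the same 22.9% and 22.8%, and the medians were 2.55 and 2.18. The gene called in both was H2afx, the H2A variant phosphorylated at DNA breaks, with 50 Msl1 reads at 3.79 (2.81 to 5.0) and 47 Nsl1 reads at 3.03 (2.23 to 4.03). The windows of both lists were 97.4% unique or more in the median, in contrast to those of the core histone genes. Per unique kb the core histone genes had the ratios given above. On all bases the 19 core members at least 80% unique in both libraries had medians of 1.91 and 1.65. Of these, 5 were called for Msl1 and 4 for Nsl1. By Nsl1 calls the replication-independent genes, at 1 of 12, thus did not stand above these 19.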

How the data were processed

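The members and the lists were chosen with earlier results of these data known. The authors aligned single-end reads with Bowtie 0.12.7 to mm9 after CASAVA 1.8.2 (submitters' processing notes), kept unique reads, and deposited 1 line per read with position, strand and a score. The deposited score was 255 on every line and was not used. Mitochondrial reads were left out, 1 read per position and strand was kept, and reads were moved to the fragment middle (fragments of 211 bases for Msl1 and 132 for Nsl1, from the strand cross-correlation on chromosomes 16, 18 and 19). Of 23888517 Msl1 and 26084098 Nsl1 reads, 19483142 and 24883001 nuclear positions remained, 10.4 and 13.3 per kb over 1870000000 mappable bases. Counts, exact Poisson and Clopper-Pearson intervals and unique sequences were computed with Python 3.11.15, numpy 2.4.6, pandas 2.3.3, scipy 1.17.1 and numba 0.67.0, and plots with matplotlib 3.10.9. The counting was tested on simulated data. Genes and 1 TSS per gene (the transcript with the longest coding sequence, the shortest on ties) were taken from GENCODE for mm9, while the study's methods name a different release.

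The named genes are, for each library, the 6 members with the highest and the 4 with the lowest TSS ratio among windows at least 50% unique; the 4 highest and 4 lowest of Msl1 over Nsl1 among those with at least 50 reads; the 6 pairs with the most and the 2 with the fewest reads; every member outside chromosome 13; the testis-type members; and listed pathway genes past 3 times the local level in both libraries. Other members and the genes Npat, Slbp, Hinfp, Cramp1l, Zfp473, Lsm11, Abt1 and Zfp322a were named after their values were seen. Alternatives were all deposited reads, a common shift, the outermost TSS, other windows, other local levels, unique kb, members at least 80% unique, and pairs counted once. The genes between the members on chromosome 13 were taken over the span of the 3 groups, without Hist1h2al, which lies far outside. With Hist1h2al the span held 240 other genes with median ratios of 1.62 and 1.47. The annotated TSS of Hist1h2be lies 35140 bases before its coding sequence, and its window was kept there. Ars2 and H1f0 were not matched. The promoter sequence of 1 further gene is not reported here.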

Additional observations from a re-analysis of the deposited data

How the results depend on the processing

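No paired analysis was possible because each antibody has 1 library and no replicate numbers, and no replicate could be left out. Of 140 values recomputed for 18 results, 104 stayed within the binomial interval of the median over members, the counting interval of a sum by type or 1.5 times the number of calls, 29 moved further and 7 changed sign. The median Msl1 ratio of 1.17 became 0.779 with windows of 250 bases, 1.58 with 1000 bases, 1.68 per unique kb, 1.91 for members at least 80% unique and 1.70 per unique kb for members at least 50% unique, and the number of Msl1 calls fell from 5 to 2 with 250 bases. On chromosome 13 the same settings gave 0.739, 1.59, 1.57, 1.74 and 1.68. For Nsl1 the median of 1.31 became 1.62 per unique kb, 1.65 at 80% and 1.61 at 50%, and on chromosome 13 1.77, 1.65 and 1.76. The median over members of past-end to TSS reads, 1.16 for Msl1 and 0.975 for Nsl1, became 0.751 for Msl1 at 80%, and 0.697 per unique kb, 0.601 at 80% and 0.743 at 50% for Nsl1. The median log2 of Msl1 over Nsl1, 0.12, changed to −0.45 with 250 bases, 0.46 with 1000 bases, −0.0068 per unique kb and −0.00070 at 80%. The median pair level, 0.567 for Msl1 and 0.545 for Nsl1 on all bases, became 1.07 and 1.06 per unique kb. Summed by type, with windows of 250 and 1000 bases chosen after seeing the data, the log2 value became 0.15 for H1 at 250 bases, −0.055 and 0.68 for H2A, −0.57 and 0.63 for H2B, −0.49 and 0.39 for H3, and −1.06 and 0.050 for H4. The window width and the unique share are the settings that changed these values. Windows at the first coding base and unique kb at 50% were also added after seeing the data. With 0 to 76 reads in a window, differences between single genes under about the width of the printed intervals were not detectable at this depth.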
